A study of Rattus norvegicus with 5 samples.

Results

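N1 is a rat hepatocellular carcinoma line of high metastatic ability, and its transcripts were compared here with those of the 3 other carcinoma lines of the same study. Each line was hybridised to its own CodeLink array of rat genes, in 1 colour, so N1 stands for 1 of the 5 samples, and the rule set its signal against the highest and the lowest of the lines C5F, C6 and L2 for every named gene. C5F and C6 are labelled low-metastatic, and L2 is labelled high-metastatic like N1. All 4 lines came from liver tumours of male F344 rats that had received N-nitrosomorpholine and diethylnitrosamine, with an age of 31 weeks in the labels. The reference was the liver of 1 untreated male SD rat of 50 weeks, so strain and age differ between the lines and the reference as well as tumour and normal tissue. Each group held 1 array, and the comparison is therefore a description by size of difference, with no test and no error between cultures.

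Hepatocellular carcinoma arises from hepatocytes, which take up bile acids and fatty acids and secrete most plasma proteins. Carcinoma lines often keep some of these functions and lose others, and they can express genes typical of other epithelia such as gut or lung. Plac8, a small cysteine-rich protein of myeloid cells and some epithelia, and Mpeg1, the pore-forming perforin-2 of macrophages, were taken as its marker genes with earlier results of these data known.

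Of 12058 named genes with a probe, 9189 had a usable spot in all 4 lines, and 3961 of those were near background in every line. That left 5228 measured genes. A spot was called near background by the scanner software when its signal could not be told from its surroundings, and 32.7% of the discovery probes were above background in N1, against 34.3% in C6, 36.0% in L2, 39.2% in C5F and 30.6% in liver. Values below are the log2 of the quantile normalised signal unless a fold is named. Replicate control spots within the N1 array had a median SD of 0.17, which covers spot-to-spot error only. In the 202 genes where it could be asked, N1 minus the median of the other lines was compared between probes of a gene. Probes of the same gene differed in that value by a median of 0.29. The upper decile of this difference was 0.84, close to the 2-fold cut of 1 on the log2 scale.

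N1 was at least 2-fold above all 3 other lines in 161 genes, which is 3.08% of those measured, and at least 2-fold below all 3 in 35 genes, which is 0.669%. Of the calls for N1 82.1% were on the higher side. The rules are not symmetric, since a lower call needs all 3 other lines above background, and every line had more higher than lower calls. With at least 2 lines above background the share was 69.0% in N1. When arrays were instead divided by the median signal of the spots called above background, the counts were 129 higher and 51 lower genes, or 71.7% on the higher side. Of the 161 genes, 122 kept a 2-fold gap under every scaling tried, and so did 31 of the 35. A further count by presence gave 113 genes (2.16%) above background in N1 only among the lines, and 165 genes (3.16%) near background in N1 only. The same counts by presence in the other lines were 10.4% and 1.24% of genes for C5F, 2.03% and 3.06% for C6, and 3.31% and 3.75% for L2.

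The other lines had their own sets of this kind. The higher sets held 195 genes (3.73%) in C5F, 105 (2.01%) in C6 and 166 (3.18%) in L2, and the lower sets held 101 (1.93%), 43 (0.822%) and 125 (2.39%). By these counts N1 had the smallest lower set, but the order depends on the spots near background. With those at their bound, the higher sets were 126 genes in N1, 115 in L2, 95 in C5F and 66 in C6, and the lower sets were 16 in N1, 12 in C6, 81 in L2 and 93 in C5F. With a 4-fold rule N1 and C6 both had 9 lower genes. Leaving out C5F from the comparison raised the higher set of N1 to 280 genes and the lower set to 114, and leaving out L2 gave 265 and 115. Without C6 the lower set was 76 genes.

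**Figure D1:**
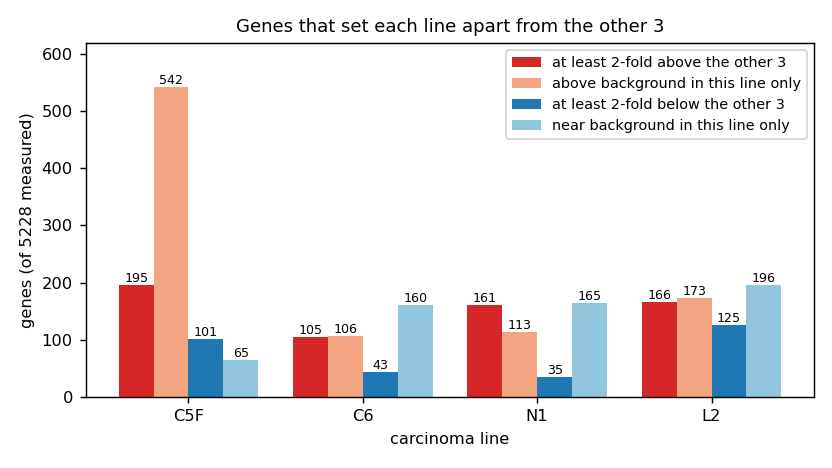
Number of genes, of 5228 measured, that set each carcinoma line apart from the other 3 lines (1 array per line, no error bars). The lower set of N1 holds 35 genes, the fewest by this rule but not with near-background spots at their bound, where C6 has 12 and N1 16, while C5F has 542 genes above background in that line only.

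Across the 3140 genes above background in all 4 lines, N1 correlated with C6 at r = 0.948, with C5F at 0.938 and with L2, the other high-metastatic line, at 0.937. These are correlations across genes on shared probes, which are not independent replicates. Between N1 and L2 288 of these genes differed by more than 2-fold, against 247 between N1 and C5F and 234 between N1 and C6. With liver, N1 correlated at 0.760 over 2033 genes. Where N1 stood alone above the rest, the next line was C5F for 67 genes, C6 for 47 and L2 for 47.

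**Figure D2:**
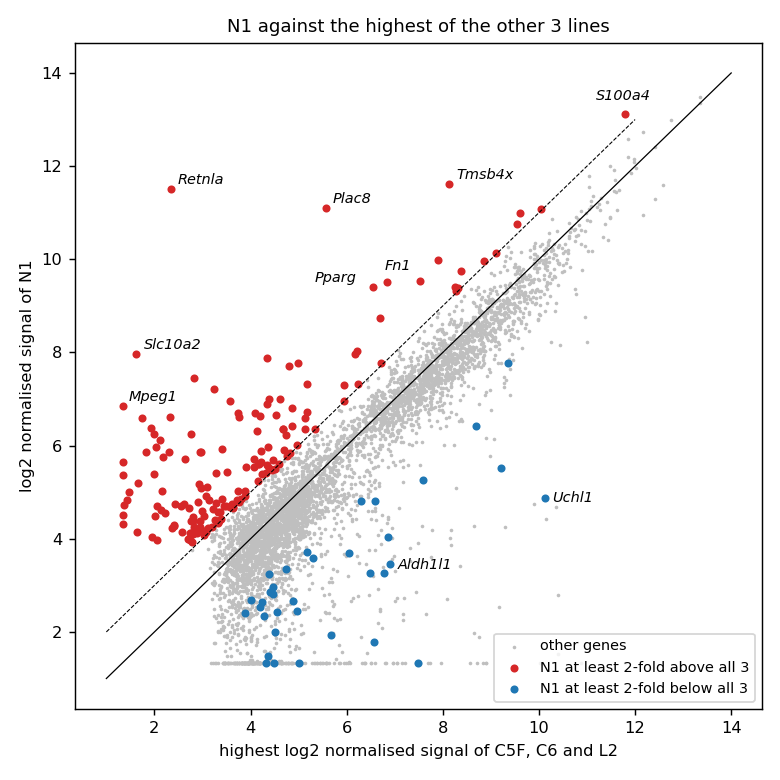
Log2 normalised signal of N1 (vertical) against the highest of C5F, C6 and L2 (horizontal) for the 5228 measured genes; the solid line marks equality and the dashed line a 2-fold higher signal in N1. Retnla, with a gap of 9.18, lies farthest above equality, followed by Slc10a2 at 6.34, Plac8 at 5.55 and Mpeg1 at 5.50, and the 35 lower genes lie at the lower right because all 3 other lines had to be above background.

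Plac8 had the widest gap of the genes that a second line also expressed above background. It read 11.11 in N1, 5.56 in C5F and 7.32 in liver, and was near background in C6 and L2. N1 was thus 46.7-fold above C5F and 13.9-fold above liver. Mpeg1 read 6.84 in N1 and 8.66 in liver and was near background in C5F, C6 and L2. N1 was at least 9.77-fold above the other lines for Mpeg1, while liver was 3.53-fold above N1.

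Mpeg1 belongs to a list of 24 macrophage and Kupffer cell markers, of which 18 had a probe. In N1 3 of the 16 usable markers were above background, namely Mpeg1, the lysosomal protein Cd68 and the Kupffer cell lectin Clec4f. Each other line also had 3, and liver had 13. Cd68 read 4.46 in N1 and 5.03 in C6, against 9.25 in liver. Clec4f read 4.64 in N1 and between 4.37 and 4.65 in the other lines, against 11.03 in liver. The pan-leukocyte phosphatase Ptprc, the lysozyme Lyz2, the complement gene C1qa and the macrophage growth factor receptor Csf1r were near background in N1. The summed signal over 19 macrophage probes was 223 in N1, 106 to 135 in the other lines and 6706 in liver. Without the Mpeg1 probe it was 108 in N1, 103 to 132 in the other lines and 6300 in liver, so Mpeg1 alone carried the excess of N1 over the lines. C1qa and Csf1r were above background in liver. In bulk RNA, fewer cells of a type and less RNA per cell cannot be told apart.

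**Figure D3:**
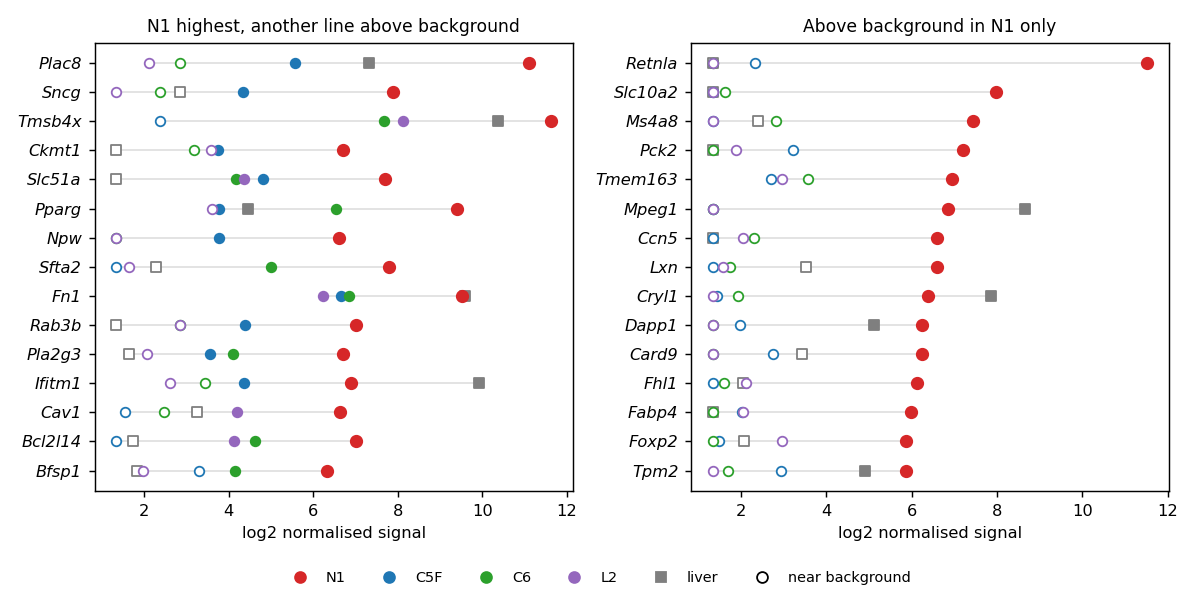
Log2 normalised signal (horizontal) of the 15 genes with the widest gap above the other lines where another line was above background (left) and of the 15 above background in N1 only with the largest bound (right). Filled symbols are above background and open symbols near it; a missing symbol is an unusable spot, and each symbol is 1 array. N1, in red, is the highest line in every row, while liver is above N1 for Fn1, Ifitm1, Mpeg1 and Cryl1.

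Retnla, the secreted resistin-like protein alpha known from alternatively activated macrophages and airway epithelium, was the strongest of the genes above background in N1 only. It read 11.52 in N1 and was near background in C5F, C6, L2 and liver. N1 was at least 249-fold above the other lines. Its relative Retnlg read 4.71 in N1 and 5.03 in liver and was near background in the other lines, with N1 at least 2.23-fold above them. Retnla and Retnlg follow each other in chromosome order among the measured genes, and they are 1 of 8 such adjacent pairs among 160 higher genes with a known position. Members of the resistin family are alike in sequence, and hybridisation of 1 gene's transcript to the other's probe was not tested.

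The promoters of Plac8, Retnla and Retnlg are shown because Plac8 and Retnla led their sets of higher genes and Retnlg is the neighbour of Retnla. Each sequence is the RefSeq window (GRCr8) from 250 bases before to 50 after the annotated start, 5′ to 3′ on the gene's strand: chr14:9356700-9356999 on the plus strand for Plac8, and chr11:65426137-65426436 and chr11:65395590-65395889 on the minus strand for Retnla and Retnlg. Capitals mark every match, on either strand, to the TATA box letters TATAAA, the box known as CCAAT, the STAT-type palindrome TTCNNNGAA, the AP-1-type site TGANTCA and the nuclear receptor half-site AGGTCA; matches may overlap.
Plac8: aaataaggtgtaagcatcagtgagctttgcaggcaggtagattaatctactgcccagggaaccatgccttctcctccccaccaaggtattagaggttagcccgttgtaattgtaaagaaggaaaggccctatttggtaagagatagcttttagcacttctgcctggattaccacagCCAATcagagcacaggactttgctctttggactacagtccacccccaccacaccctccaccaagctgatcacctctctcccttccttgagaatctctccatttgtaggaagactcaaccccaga
Retnla: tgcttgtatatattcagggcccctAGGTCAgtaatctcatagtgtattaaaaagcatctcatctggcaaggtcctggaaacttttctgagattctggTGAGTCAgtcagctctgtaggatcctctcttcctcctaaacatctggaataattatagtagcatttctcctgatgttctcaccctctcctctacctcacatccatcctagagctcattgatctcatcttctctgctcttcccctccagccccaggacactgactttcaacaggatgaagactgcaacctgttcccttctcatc
Retnlg: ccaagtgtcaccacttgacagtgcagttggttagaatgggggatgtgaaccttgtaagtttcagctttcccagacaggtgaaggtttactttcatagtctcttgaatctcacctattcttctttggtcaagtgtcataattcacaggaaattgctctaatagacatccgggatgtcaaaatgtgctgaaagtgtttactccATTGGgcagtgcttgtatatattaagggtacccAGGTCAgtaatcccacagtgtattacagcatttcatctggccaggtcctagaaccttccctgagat

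The Plac8 window holds CCAAT 74 bases before the start, the Retnla window TGANTCA 153 and AGGTCA 226 bases before it, and the Retnlg window CCAAT 49 and AGGTCA 16 bases before it. Retnla and Retnlg share an unbroken run of 14 bases, TGCTTGTATATATT, which begins 250 bases before the annotated start of Retnla and 40 bases before that of Retnlg. The run opens the Retnla window, so bases before it were not compared. It lies at unlike distances from the annotated starts, and whether transcription begins at these starts was not tested. All distances therefore hold for the annotation only. Neither the Retnla nor the Retnlg window shares a run of more than 7 bases with Plac8. The 3 windows hold 0 or 1 CpG, against a median of 21 over the 4364 measured genes with a window. The median over 130 higher genes of N1 was 13, as in the higher genes of C5F, and it was 11 in those of C6 and 17 in those of L2.

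Motif shares among the higher genes of N1 were 12.3% for TATAAA against 7.81% over all 4364 windows, and 38.5% against 38.1% for CCAAT. They were 8.46% against 5.02% for TGANTCA, 6.15% against 6.85% for TTCNNNGAA and 12.3% against 12.5% for AGGTCA. The higher genes of C5F and C6 held TATAAA in 13.5% and 17.3% of windows, so that share was not highest in N1. A match describes the letters of this window only.

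Several further secreted or mucosal genes were high in N1. Sfta2, a surfactant-associated protein, read 7.78 in N1 and 4.99 in C6 and was near background elsewhere, a 6.91-fold gap. A list of 14 measured resistin, surfactant and mucosal secreted genes, put together after the values were seen, had 9 members at least 2-fold above all other lines, and nothing is read from that count. The mucin-branching enzyme Gcnt3 read 7.33 in N1, 5.17 in C5F, 5.15 in C6 and 4.24 in L2 and was near background in liver. Gpr15lg, a secreted ligand of the receptor GPR15, read 9.98 in N1, 7.90 in C6, 5.41 in C5F and 4.90 in L2, with 7.05 in liver. Both were more than 4-fold higher in N1 than in the next line.

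The lung proteins were not alike in pattern. Sftpd, the surfactant protein D, read 4.69 in N1, and the aspartic protease Napsa read 5.72; both were near background in the other 3 lines, and liver read 4.96 for Napsa. Sftpc, the surfactant protein C of alveolar cells, read 5.77 in N1 but 8.97 in L2, so that L2 was the higher line. Among gut genes, the list of intestinal and gastric genes had 2 of its 8 measured members in the higher set, against 3.08% of all genes. They were Plac8, the marker of N1, and Fabp1, whose bound is under 2-fold. The gut lectin Lgals4 read 10.88 in N1, 10.27 in C5F and 9.41 in C6 and was near background in L2 and liver, so N1 did not stand apart from C5F. The intestinal cadherin Cdh17 read 9.77 in N1 and lay within the range of the other lines, 8.76 to 10.90. The tetraspanin Tspan8 of gut and tumour cells read 8.73 in N1, 6.69 in C5F, 4.75 in C6 and 3.79 in L2, a 4.11-fold gap.

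Pparg, the nuclear receptor that directs fat storage in adipocytes, read 9.40 in N1, 6.54 in C6, 3.77 in C5F and 4.46 in liver, and was near background in L2. N1 was 7.26-fold above C6 and 30.8-fold above liver. A second Pparg probe gave a gap of 2.33 on the log2 scale against 2.86 for the first, again with C6 as the next line. Fabp4, the fatty acid binding protein of adipocytes and a known target of PPARG, read 5.98 in N1 and was near background in the other lines and liver, at least 5.35-fold above the lines. Cidec, which enlarges lipid droplets, read 9.53 in N1, 7.53 in C5F, 6.16 in C6, 4.05 in L2 and 8.96 in liver. Both the adipocyte binding protein and the droplet protein thus stood highest in N1 among the lines.

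Pck2, the mitochondrial enzyme that makes phosphoenolpyruvate, read 7.21 in N1 and was near background in the other lines and liver, at least 12.6-fold above the lines. A second Pck2 probe was near background on all arrays. Fabp1, the liver fatty acid binding protein, read 4.50 in N1 and 10.19 in liver and was near background in the other 3 lines. N1 was at least 1.93-fold above those lines, and liver was 51.3-fold above N1. Mgll, which splits monoglycerides, read 5.20 in N1 and 6.39 in liver, and was near background in the other lines. A further Mgll probe was above background in C5F, C6 and L2 and not usable in N1, so the position of N1 for this gene is uncertain.

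These 6 genes belong to a list of 14 measured lipid droplet and PPARG genes assembled after the values were seen. None of its other 8 members reached a 2-fold gap above. N1 was the highest line in 9 of the 14, and in 28.9% of all genes. Nothing is read from that count, because the list was assembled with its values known. Plin2, which coats lipid droplets, read 7.03 in N1 and 7.09 to 7.59 in the other lines. The mitochondrial carrier Ucp2 read 9.34 in N1, 8.62 in C5F, 8.70 in C6 and 8.20 in L2, a gap under 2-fold. In the list of fatty acid uptake and oxidation genes, 2 of 9 measured genes stood at least 2-fold above, Fabp1 and Fabp4. The share over all genes was 3.08%. The peroxisomal enzyme Hsd17b4 read 9.75 in N1, 8.26 in C5F, 7.99 in C6, 8.37 in L2 and 9.94 in liver, and was named after its values were seen. N1 was 2.61-fold above L2 for Hsd17b4 and close to liver.

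Some genes of bile acid transport also had wide gaps. Slc10a2, the sodium-dependent bile acid transporter of the ileum and of bile duct cells, read 7.97 in N1 and was near background in C5F, C6, L2 and liver. N1 was at least 21.3-fold above the other lines. Slc51a, a subunit of the exporter that passes bile acids to the blood side, read 7.70 in N1, 4.81 in C5F, 4.37 in L2 and 4.18 in C6 and was near background in liver. N1 was 7.45-fold above C5F and at least 14.2-fold above liver. Thus an importer and an exporter subunit of bile acids were both highest in N1 and near background in liver.

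Nr0b2, the small heterodimer partner that represses bile acid synthesis, read 5.89 in N1 and 4.22 in C5F, was near background in C6 and L2, and had no usable spot in liver. Its activator Nr1h4, the bile acid receptor, read 3.94 in N1, which lay -0.06 from C6, was near background in C5F and L2, and read 8.92 in liver. Slc10a1, the bile acid importer of hepatocytes, read 5.39 in N1, 5.26 to 5.73 in the other lines and 7.33 in liver. The hepatocyte importer thus did not set N1 apart. Abcc3, a basolateral efflux pump, read 6.20 in N1, 5.31 in C5F, 4.33 in C6 and 4.40 in L2, a gap under 2-fold. Of 9 measured genes in this group, which was assembled after the values were seen, 3 were at least 2-fold above, and nothing is read from that count.

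Some enzymes that release or convert arachidonic acid were high in N1. The secreted phospholipase Pla2g3 read 6.71 in N1, 4.10 in C6 and 3.56 in C5F and was near background in L2 and liver, a 6.10-fold gap. The phospholipase Pla2g2a read 8.03 in N1, 6.22 in C5F and 5.41 in liver and was near background in C6 and L2. Ptgs2, the inducible cyclooxygenase, read 4.76 in N1 and was near background in all other samples, at least 2.31-fold above the lines. Tbxas1, the thromboxane synthase, read 4.26 in N1 and was near background elsewhere, with a bound of 1.63-fold that does not reach 2-fold. These 4 were the higher ones of 14 measured genes in a list made after the values were seen, and nothing is read from that count.

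**Figure D4:**
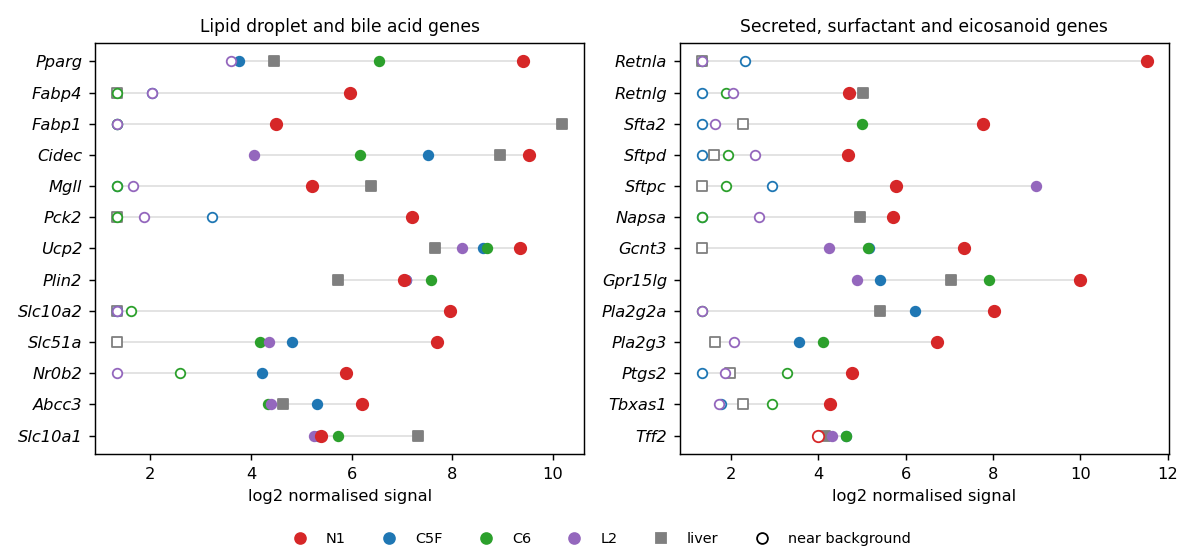
Log2 normalised signal (horizontal) of lipid droplet and bile acid genes (left) and of secreted, surfactant and eicosanoid genes (right), 1 symbol per array, chosen after the values were seen; open symbols are near background and a missing symbol is an unusable spot. N1 is the highest line for most of the genes drawn, while Plin2, Slc10a1, Sftpc and Tff2 do not follow.

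Lists of the cytoskeleton, the matrix and the cell surface had 1 or 2 members each in the higher set. They held 2 of 22 actin and tubulin regulators (9.09%) and 1 of 17 collagens, laminins and matrix glycoproteins (5.88%). They also held 1 of 8 integrins (12.5%) and 2 of 19 adhesion molecules (10.5%). Each share was above the 3.08% of all genes but rests on 1 or 2 genes. Tmsb4x, which binds actin monomers, read 11.62 in N1, 8.12 in L2, 7.67 in C6 and 10.37 in liver and was near background in C5F. N1 was 11.3-fold above L2. Tpm2, a tropomyosin of muscle and fibroblasts, read 5.86 in N1 and 4.91 in liver and was near background in the other lines, at least 4.96-fold above them. Both belong to the 22 actin and tubulin regulators, of which 0 were in the lower set. Over all genes 0.669% were in the lower set, so 0 of 22 says little.

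Fn1, the matrix protein fibronectin, read 9.51 in N1, 6.85 in C6, 6.66 in C5F and 6.24 in L2, with 9.59 in liver. N1 was 6.34-fold above C6 and level with liver. The other Fn1 probes did not show this: 1 was near background everywhere and 1 was above background in C5F only, and averaging all probes left a gap of 0.57 on the log2 scale. S100a4, a calcium-binding protein tied to motility, read 13.13 in N1, 11.79 in C6, 11.46 in L2, 9.76 in C5F and 6.90 in liver. The intermediate filament protein Vim read 10.13 in N1, 9.11 in L2, 9.01 in C6 and 6.24 in C5F. Vim was 2.04-fold above L2 and fell under 2-fold when the lines were normalised without the liver array.

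Fn1, S100a4 and Vim were the higher ones of 19 measured genes in the mesenchymal list (15.8%, against 3.08% of all genes). The median difference of that list from the middle line was 0.61, against 0.07 over all genes. Epithelial genes lay on both sides. Krt8, the keratin of simple epithelia, read 10.16 in N1 and 9.03 to 9.42 in the other lines. Cdh1, the cadherin of epithelial junctions, read 6.72 in N1, 6.89 in C5F, 8.17 in C6 and 8.76 in liver, and was near background in L2. Of 6 measured keratins 0 were in either set, N1 was the lowest line in 3, and the median difference from the middle line was -0.26. Of 15 measured junction and polarity genes 0 were in the higher set and 1, the surface protease St14, in the lower set. Over all genes 3.08% were in the higher set and 0.669% in the lower, so 0 in lists as small as these 2 says little. N1 was the lowest line in 5 of these 15, against 18.4% of all genes, and the list's median changed sign with the scaling. St14 was near background in N1 and read 3.99 in C5F, 4.12 in C6 and 4.96 in L2, with a bound of 1.21-fold.

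Cav1, the coat protein of caveolae, read 6.63 in N1 and 4.21 in L2 and was near background in C5F, C6 and liver, a 5.36-fold gap. A second Cav1 probe was near background in all samples. Itgb4, the integrin chain of hemidesmosomes, read 7.32 in N1, 6.24 in C6 and 6.23 in L2 and was near background in C5F and liver. Its gap of 1.09 fell under 2-fold with 2 other scalings. The tetraspanin Cd81 read 11.07 in N1 and 9.59 to 10.04 in the other lines, close to the 10.97 of liver. Among matrix proteases and inhibitors, 2 of 20 measured genes were in the higher set, against 3.08% of all genes. Mmp11, a stromelysin, read 6.36 in N1, 5.14 in L2 and 4.57 in C5F and was near background in C6 and liver. The heparan sulphate cleaving enzyme Hpse read 4.16 in N1 and was near background in all other samples, with a bound of 1.52-fold. Ccn5, a secreted matricellular protein, read 6.60 in N1 and was near background in the other lines and liver, at least 8.28-fold above the lines.

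Of 28 measured genes of growth factors and the IGF axis, 3 were in the higher set and 1 in the lower. Over all genes the shares were 3.08% and 0.669%. Fgf1, a fibroblast growth factor, read 5.76 in N1 and 4.59 in liver and was near background in the other lines, at least 4.61-fold above them. The IGF binding proteins went in both directions. Igfbp5 read 5.03 and Igfbp6 4.50 in N1, and both were near background in all other samples, with bounds of 2.79-fold and 1.92-fold over the lines. Igfbp3 was near background in N1 and read 4.29 in C5F, 4.38 in C6, 4.25 in L2 and 4.93 in liver, with a bound of 1.46-fold. Of 13 measured receptor tyrosine kinases 0 were in either set, which is too few genes at those shares to set the list apart. Met, the receptor of hepatocyte growth factor, was near background in N1 and C5F and read 3.86 in C6, 3.95 in L2 and 4.62 in liver.

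Several transcription factors were above background in N1 only among the lines. Foxp2, a forkhead factor, read 5.87 in N1 and was near background in liver too, and a second Foxp2 probe read 4.47 in N1 and was near background in every other sample. Mycn read 4.92, the posterior homeobox factor Hoxb13 read 4.75 and the AP-1 member Junb read 4.16 in N1, and all 3 were near background elsewhere. The gap of Junb had a bound of 1.52-fold. Junb and Mycn were the higher ones of 12 measured immediate early genes, and Hoxb13 of 10 homeobox genes, while Foxp2 is in no list. Over all genes 3.08% were in the higher set.

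The other genes with the widest gaps are described one by one. Sncg, gamma-synuclein of neurons and adipocytes, read 7.88 in N1 and 4.34 in C5F and was near background in C6, L2 and liver, an 11.7-fold gap. Rab3b, a GTPase of regulated secretion, read 7.01 in N1 and 4.38 in C5F and was near background elsewhere. The neuropeptide gene Npw read 6.61 in N1 and 3.76 in C5F and was near background in C6 and L2. For all 3 genes C5F was the second line, and C6 and L2 were near background.

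Ckmt1, the mitochondrial creatine kinase, read 6.70 in N1 and 3.74 in C5F and was near background in C6, L2 and liver, a 7.82-fold gap. Bfsp1, a filament protein of the lens, read 6.32 in N1 and 4.14 in C6 and was near background in the other samples. Fhl1, a LIM protein of muscle, read 6.12 in N1, Lxn, a carboxypeptidase inhibitor, read 6.59, and the zinc transporter Tmem163 read 6.95, and all 3 were near background in C5F, C6 and L2. In the neuroendocrine and secretory granule list, 0 of 7 measured genes were higher in N1 and 1, Uchl1, was lower. Over all genes the shares were 3.08% and 0.669%, so 0 of 7 says little.

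Some genes known from immune cells or the interferon response were in the sets of widest gaps. Ifitm1, an interferon-induced membrane protein, read 6.88 in N1, 4.35 in C5F and 9.91 in liver and was near background in C6 and L2, a 5.78-fold gap. Card9, the adaptor of innate fungal sensing, read 6.24 in N1 and was near background in all other samples. Dapp1, an adaptor of B cell signalling, read 6.25 in N1 and 5.13 in liver and was near background in the other lines, and Ms4a8, a membrane protein of the MS4A family, read 7.45 in N1 and was near background elsewhere. Il33, a cytokine of epithelial nuclei, read 9.40 in N1, 8.25 in C6, 8.19 in L2 and 5.55 in C5F, a 2.22-fold gap that fell under 2-fold with 1 other scaling. Of 12 measured interferon response genes, 6 antigen presentation genes and 3 lymphoid genes, 0 were in either set. With 3.08% of all genes in the higher set and 0.669% in the lower, a count of 0 in lists this small says little. Genes outside those lists that are known from immune cells or the interferon response were also in the higher set, and they were picked out after their values were seen. Among these, the lymphocyte surface protein Cd5 read 4.48, Cd7 4.23 and the class I gene RT1-N3 6.35 in N1. With near-background spots at their bound, Cd5 and Cd7 did not reach a 2-fold gap. The gap of Cd7 was 1.11 and fell to 0.65 and 0.90 with other scalings.

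By the 2-fold rule fewer genes set N1 apart on the lower side, but that rule also needs all 3 other lines above background. By presence the order was the other way, with 165 genes near background in N1 only and 113 above background in N1 only. N1 also had the lowest share of probes above background of the lines, 32.7% against 34.3% to 39.2%. Whether that share sets the order by presence was not tested. The widest lower gap among genes above background in all 4 lines was -1.57, and gaps that end near background cannot be sized. In 8 of the 35 genes N1 was still above background, and in 27 it was near background. Tec, a cytoplasmic tyrosine kinase, read 4.03 in N1, 5.60 in C5F, 5.85 in C6, 6.86 in L2 and 7.53 in liver, 2.97-fold under C5F. Uchl1, a ubiquitin hydrolase of neurons, read 4.88 in N1, 6.29 in C5F, 8.27 in C6 and 10.13 in L2 and was near background in liver. Averaging the probes of Uchl1 left a gap of only -0.06 on the log2 scale. Tec was thus lowest in N1 of all samples, while Uchl1 was lower still in liver.

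Gpnmb, a glycoprotein of melanosomes and macrophages, read 7.77 in N1, 8.98 in C6, 9.16 in L2 and 9.35 in C5F, with 7.86 in liver. The lysosomal membrane protein Gpr137b read 5.53 in N1, 6.76 in C5F, 6.89 in L2 and 9.21 in C6. Rcan1, an inhibitor of calcineurin, read 4.81 in N1, 5.98 in L2, 6.45 in C5F, 6.59 in C6 and 9.12 in liver. For these 3 genes the other lines lay above N1, and liver was close to N1 for Gpnmb and 19.8-fold above it for Rcan1. The remaining genes of this kind with a 2-fold gap were Bspry, Net1, an exchange factor for RhoA, and Gem, a small GTPase, with gaps of -1.10, -1.07 and -1.05. Under 1 other scaling each, Gpnmb, Bspry and Net1 fell under 2-fold.

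Aldh1l1, the cytosolic enzyme that oxidises formyl tetrahydrofolate, led the genes near background in N1 only. It read 6.05 in C5F, 6.91 in C6, 6.85 in L2 and 9.86 in liver, and N1 was at least 5.09-fold below C5F. Kyat3, an aminotransferase of the kynurenine pathway, read 4.79 in C5F, 4.77 in C6, 7.48 in L2 and 9.04 in liver, the lowest of the lines being at least 2.10-fold above N1. Both are enzymes of liver metabolism, and in both liver was the highest sample. Ltbp4, which holds latent TGF-beta in the matrix, read 5.76 in C5F, 5.63 in C6 and 6.49 in L2, each at least 3.79-fold above N1. Tspan9, a tetraspanin, read 6.23 in C5F, 5.34 in C6 and 6.57 in L2, each at least 3.10-fold above N1. For the phosphatase Ppm1h the bound was 3.35-fold, for the metallopeptidase Ermp1 2.88-fold and for the centriole protein Cep83 2.56-fold. The cytokine Il15 was near background in N1 and read 4.95 in C5F, 4.63 in C6, 4.48 in L2 and 6.43 in liver, with a bound of 1.64-fold. With the near-background spots set to their bound, 16 of the 35 genes kept a 2-fold gap.

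**Figure D5:**
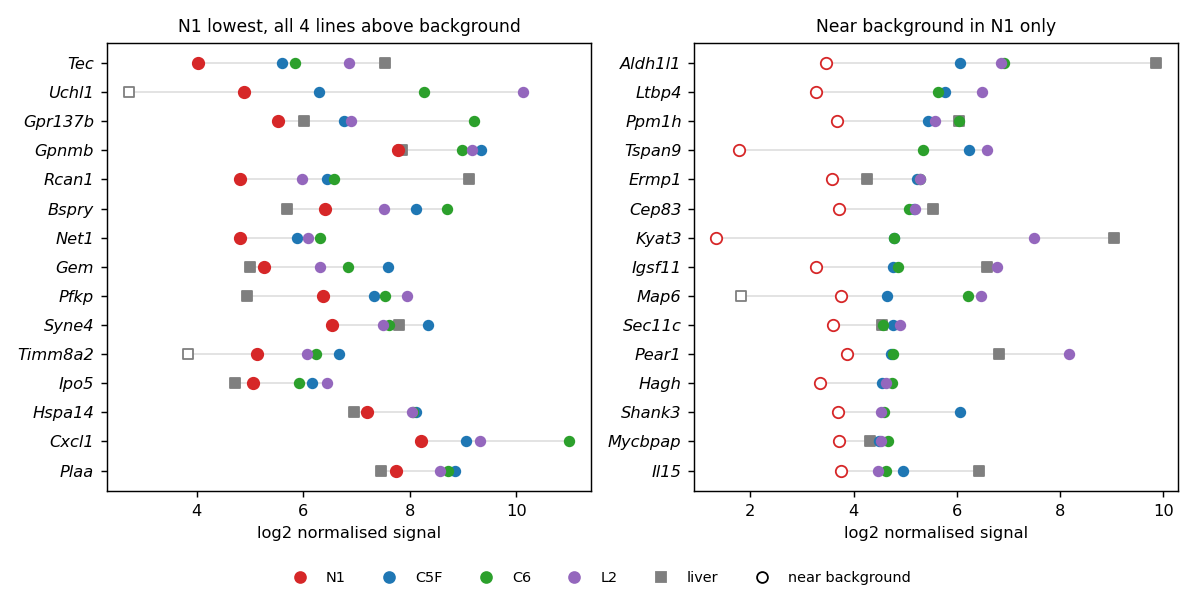
Log2 normalised signal (horizontal) of the 15 genes with the widest gap below the other lines among genes above background in all 4 lines (left) and of the 15 near background in N1 only with the largest bound (right), 1 symbol per array; a missing symbol is an unusable spot. N1 lies left of the 3 other lines in every row, and on the left the gap narrows from -1.57 for Tec to under 2-fold from Pfkp downward.

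N1 carried little of the hepatocyte secretory programme. Of 19 usable hepatocyte secreted proteins 3 were above background in N1, namely Apoa2, Apob and Apom, against 12 of 19 in C5F, 4 of 20 in C6 and 5 of 20 in L2. Albumin, Alb, was near background in all 4 lines. Ttr, which carries thyroid hormone, was near background in N1, C6 and L2 and read 8.71 in C5F and 12.59 in liver. The fetal liver protein Afp was near background in N1 and C6 and read 4.47 in L2, 7.68 in liver and 11.78 in C5F. Of the liver transcription factors, Hnf4a read 4.96 in N1, within the 4.50 to 5.41 of the other lines, and Gata4 read 7.55 in N1 and 7.38 to 7.50 in them. Of the liver transcription factors and nuclear receptors with a usable spot, 6 of 12 were above background in N1, 9 of 14 in C5F, 5 of 13 in C6, 3 of 13 in L2 and 8 of 11 in liver. The defining hepatocyte genes Alb and Ttr were near background in N1, as in C6 and L2.

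Over the 44 gene lists, 26 of 506 measured genes were in the higher set (5.14%, against 3.08% of all genes) and 3 in the lower (0.669% of all genes), and 24 lists had no gene in the higher set. The 26 measured genes of cell cycle and DNA replication and the 27 ribosomal proteins had 0 in either set. So did the 18 NRF2 and glutathione genes, whose median difference from the middle line was 0.60. In that list the quinone reductase Nqo1 read 8.68 in N1, 7.35 in C5F and 7.30 in C6 but 9.48 in L2. The cystine importer Slc7a11 read 9.05 in N1, 7.79 in C5F, 8.45 in C6 and 10.35 in L2, so L2 was the higher line for both. The 17 WNT pathway genes had 0 in either set.

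Against liver, 56 of the 150 higher genes with a usable liver spot were above background there (37.3%), compared with 57.4% of 4602 genes measured. N1 was at least 2-fold over liver in 102 of the 150, within 2-fold in 30 and at least 2-fold under in 18. Of the 29 lower genes with a usable liver spot, 22 were above background in liver (75.9%) and 20 were at least 2-fold under it in N1. Of the higher genes of the other lines, 35.0% to 39.7% were above background in liver, and the share of N1 lay within that range.

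In 38 of the 161 higher genes the array carried 47 further usable probes, of which 35 were near background in all 4 lines. The 7 further probes above background in N1 were all at least 2-fold above the other lines, where 20 of 326 such probes (6.13%) were over all genes measured. That count leaves out further probes near background in N1 but above it in another line, such as the Fn1 probe above background in C5F only. It therefore cannot show how many further probes disagree. The lower genes had 13 further probes, of which 10 were near background in all 4 lines.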

How the data were processed

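RNA of 4 carcinoma lines and 1 liver was measured on 5 single-colour CodeLink arrays, 1 per group. Per the file headers, scans were read by the authors in CodeLink Expression Analysis 4.1 (full version 4.1.0.29054). The deposited raw intensity per spot, with background already subtracted, was the value used. The deposited normalized intensity, the raw value divided by the array median, served as an alternative. Aligners do not apply to arrays.

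Of 35129 spots, 33849 are discovery probes. Their spots flagged above or near background were kept, and irregular (2946 in N1), contaminated and masked spots were set to missing, which left 2869 of 12058 named genes without a usable spot in all 4 lines. Signals were quantile normalised over the 5 arrays by the limma package 3.58.1 under R 4.3.3, with the package data.table in version 1.17.8, raised to at least 2.53 (the median over near-background spots) and taken to log2. Tables and plots used Python 3.11.15, pandas 2.3.3, numpy 2.4.6 and matplotlib 3.10.9. Genes were named from the platform annotation (16753 probes had 1 gene and 165 several), with symbols updated through Entrez numbers in the RefSeq gene annotation GRCr8, where 16836 of 16865 matched. The probe with the highest mean signal over the lines stood for a gene.

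A gene counted as higher when above background in N1 and at least 2-fold over the highest other line, and as lower when at least 2-fold under the lowest, with all 3 others above background. A fold printed as "at least" raises a near-background spot, where lower, to the dimmest spot that its array called above background. Those dimmest spots had signals of 7.87 for C5F, 11.2 for L2, 11.8 for C6, 13.0 for N1 and 14.6 for liver. Some near-background spots read above that level, so the bound follows this rule and is not a strict limit. Precision is limited by the number of arrays. No test was possible with 1 array per line. The counting was tested on simulated data. In those data every spot counted as above background and the planted differences were wider than 2-fold, so calls that rest on near-background spots were not tested.

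Named genes were 4 sets of 15 (widest gaps above and below, and largest bounds for genes above or near background in N1 only), up to 3 members per list at least 2-fold outside the other lines, and Plac8, Mpeg1, Alb, Afp, Krt8, Krt18, Cdh1, Vim, Met, Cd44, Mki67, Fabp1, Gapdh and Actb. Not all are described. Genes named outside this rule were chosen after their values were seen, as were 5 added lists. The members and lists were chosen with earlier results of these data known. Alternatives were 4 other scalings, irregular spots kept, an offset of 50 in place of the floor, a 4-fold rule, at least 2 lines above background, the mean over probes, each other line left out and, added later, near-background spots at their bound.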

Additional observations from a re-analysis of the deposited data

How the results depend on the processing

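Scaling moved the counts by less than 1.5 times but not to the same genes: over 3 other scalings and quantile normalisation without liver, N1 was higher in 129 to 165 genes and lower in 38 to 51, against 161 and 35, and scaling to the median signal kept 125 of 160 higher genes. With an offset of 50 in place of the floor the counts were 42 and 1, and with a 4-fold rule 63 and 9. Requiring at least 2 lines above background left 78 higher genes and, by construction, 0 above background in N1 only. Keeping irregular spots gave 79 lower genes among 8625 measured. With near-background spots at their bound, an alternative chosen after seeing the data, the counts were 126 and 16. Leaving out C5F, C6 or L2 gave 229 to 280 higher genes, 76 to 115 lower genes, 142 to 263 above background in N1 only and 220 to 353 near background in N1 only, since fewer lines then bound the range. For the 60 genes of the 4 named sets, 535 of 645 values over 12 settings moved by less than the SD of the other 3 lines, 110 by more and 0 changed direction. For Mpeg1, at the floor in the other 3 lines, a move from 5.50 to 5.51 counted as more. For Plac8 a move from 5.55 to 5.13 counted as less. The split thus depends on how far the other lines differ and does not measure robustness. The 60 genes were chosen for their wide gaps or bounds in the main setting. Leaving out a line cannot narrow a probe's gap to the nearest line left, so those settings could hardly change a direction. No paired analysis was possible because each group has 1 array and the labels carry no replicate numbers. Signal over background limits the dim genes, since 27 of the 35 lower genes and all genes above background in N1 only have a bound and not a measured fold.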
